A study of Homo sapiens with 28 samples.

Results

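The genes described here mark the epithelial and mesenchymal states of a cell: CDH1, EPCAM and ESRP1 on the epithelial side, VIM, CDH2 and FN1 on the mesenchymal side, the gap junction gene GJA1, the transcription factor genes SNAI2 and ZEB1, and the TGF-beta induced matrix gene TGFBI. They were chosen by name, with their levels in each line and their differences between treated and control libraries in view, so those values are given as a description. Where the number of them past a threshold is printed, it stands beside the share of all genes past it and nothing is read from it. Of the 10 genes named, 9 were listed among the 13897 genes of the expression tables and ZEB1 was listed in none. All 9 were present in the table of the compound experiment and in the siRNA table of H2009, and 8 in the siRNA table of H596, where GJA1 was not listed.

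RNA was sequenced from H2009 and H596, established lines of human non-small cell lung cancer that the labels both call adenocarcinoma. The study's stated aim was to follow the transcriptional response to loss or inhibition of RUVBL1, an AAA+ ATPase that works with RUVBL2 in chaperone and chromatin remodelling complexes. Cells of each line received an siRNA against RUVBL1 or a non-targeting siRNA by reverse transfection (2.5 days in H2009, 3 days in H596), or, in a separate experiment, 100 nM compound B, 100 nM compound C (each for 24 h) or no treatment. Each of the 10 groups had 2 libraries, and no allele or transgene is given for any of them. Compound B is named as the RUVBL1 inhibitor. Compound C is known here only by its code. Nothing says that the libraries of a group came from separate cultures, so the errors and p-values cover the spread among these libraries alone, which may be technical.

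Epithelial cells hold together through E-cadherin, the product of CDH1, and through tight junctions and desmosomes, over a cytoskeleton of keratins. In epithelial-mesenchymal transition, factors of the SNAIL, ZEB and TWIST families bind E-box sequences and repress CDH1 and other epithelial genes, while the intermediate filament protein vimentin (VIM), N-cadherin (CDH2) and fibronectin (FN1) increase. ESRP1 is a splicing factor that maintains epithelial isoforms, EPCAM is a cell surface glycoprotein of carcinomas, and GJA1 encodes connexin 43, a channel protein through which neighbouring cells exchange small molecules. Carcinoma lines commonly express part of each set.

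VIM and GJA1 are the genes on which the results turn, and their proximal promoters are shown because both genes had lower levels under the same treatment. The 250 bases before each start are taken from RefSeq (build GRCh38.p14, whereas the expression tables used hg19). RefSeq promoter sequences matched 6 of the 10 genes, and no promoter was matched for CDH1, EPCAM, ESRP1 or SNAI2. The sequence for GJA1 is chr6:121435396-121435645, plus strand, and capitals mark its match to TGAGTCA, the AP-1 motif. The sequence for VIM is chr10:17227991-17228240, plus strand, and capitals mark its match to GGGCGG, the GC box bound by SP1.
GJA1: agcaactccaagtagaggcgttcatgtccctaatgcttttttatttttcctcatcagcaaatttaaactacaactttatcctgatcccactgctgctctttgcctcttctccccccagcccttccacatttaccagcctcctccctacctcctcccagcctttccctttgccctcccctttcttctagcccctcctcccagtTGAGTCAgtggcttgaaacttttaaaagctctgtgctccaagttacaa
VIM: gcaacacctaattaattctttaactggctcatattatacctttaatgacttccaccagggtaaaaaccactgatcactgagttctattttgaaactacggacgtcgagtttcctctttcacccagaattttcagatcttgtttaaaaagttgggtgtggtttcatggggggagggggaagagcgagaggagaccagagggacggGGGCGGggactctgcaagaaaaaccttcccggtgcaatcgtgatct
The TGAGTCA match began 48 bases before the GJA1 start, and 4.2% of 35116 promoters of the same length held this motif on either strand. The GGGCGG match began 46 bases before the VIM start, in a window where 42.6% of promoters held the motif. GGGCGG copies can overlap one another. Neither sequence contained CAGGTG, the E-box form read by SNAIL and ZEB factors (17.5% of promoters), or CATTCC, the TEAD motif (11.9%). These matches describe letters in these windows and not bound sites.

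The untreated lines differed widely in these genes. All levels are FPKM, fragments per kilobase of transcript relative to all mapped fragments of the library, a scale on which genes can be compared because it is divided by length. In H2009, the order from highest to lowest mean was TGFBI, EPCAM, CDH1, VIM, ESRP1, GJA1, CDH2, SNAI2 and FN1. VIM and ESRP1, and CDH2 and SNAI2, are neighbours in this order whose libraries overlapped, and the lower TGFBI library (513 FPKM) lay just above the higher EPCAM library (511 FPKM). In H596 the order was TGFBI, EPCAM, SNAI2, CDH1, ESRP1, CDH2, FN1, GJA1 and VIM, and among neighbours TGFBI overlapped EPCAM and SNAI2 overlapped CDH1.

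VIM separated the lines most. Its level was 94.4 and 77.7 FPKM in the untreated H2009 libraries, and 0.0618 and 0.0163 FPKM in those of H596. GJA1 had 38.0 and 43.3 FPKM in H2009 and 0.158 and 0.214 FPKM in H596. H596 thus had both genes below 1 FPKM in each untreated library, and they met the expression filter of the compound table only through H2009. On the log2(FPKM + 1) scale, which understates differences of weakly expressed genes, the H596 minus H2009 difference was -6.38 (SE 0.18) for VIM and -5.13 (SE 0.20) for GJA1.

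The epithelial genes CDH1, EPCAM and ESRP1 were also lower in H596, although they were well expressed in both lines. CDH1 was at 42.1 and 32.8 FPKM in H596 against 156 and 148 FPKM in H2009, a log2 difference of -2.0 (SE 0.24). EPCAM was at 95.8 and 76.7 FPKM against 511 and 432 FPKM, a difference of -2.44 (SE 0.27). ESRP1 was at 31.4 and 28.6 FPKM against 80.5 and 85.8 FPKM, a difference of -1.44 (SE 0.17). No library of one line overlapped the other in any of these genes.

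Among the remaining genes, SNAI2, which encodes the repressor SLUG, was the only one with higher levels in H596, at 41.0 and 40.7 FPKM against 14.2 and 12.7 FPKM in H2009 (log2 difference 1.54, SE 0.20). TGFBI, a secreted matrix protein, was at 180 and 95.3 FPKM in H596 and 727 and 513 FPKM in H2009. FN1 was near 1 FPKM in H596 (1.18 and 1.08) and at 4.13 and 3.61 FPKM in H2009. CDH2 differed least, with 9.11 and 7.95 FPKM in H596 and 17.0 and 10.4 FPKM in H2009. The lines did not overlap in any of the 9 genes (8 lower and 1 higher in H596), where 69.2% of all 12781 genes tested did not overlap. With adjusted p under 0.05 in limma as the call, 7 were lower and 1 higher, against a background of 43.3% of genes called. Epithelial genes outside the chosen ones went both ways between the lines. Of 24 junction and polarity genes, 9 were called higher in H596 and 3 lower (median log2 difference 0.48 beside 0.08 over all genes). Of 16 epithelial regulators and surface genes, 5 were called higher and 3 lower, and of 4 simple epithelial keratins 2 were called lower.

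Markers of lineage put these levels in context. The simple epithelial keratins KRT7, KRT8, KRT18 and KRT19 summed to between 2940 and 5280 FPKM in untreated H2009 and between 3370 and 4190 FPKM in untreated H596. NKX2-1, the lineage factor of lung adenocarcinoma, was at 106 and 60.8 FPKM in H2009 and 1.04 and 0.431 FPKM in H596. The squamous markers TP63 (88.3 and 77.5 FPKM) and KRT5 (1450 and 1210 FPKM) were high in untreated H596 and each below 1 FPKM in untreated H2009 (limma, adjusted p = 3.86e-08 and 2.53e-08 between lines). The adenocarcinoma markers NAPSA, SFTPB and SFTPC were not listed. Endothelial markers were not listed in the compound table, CD68 was the 1 leukocyte marker of 7 listed, and the 2 fibroblast markers of 8 that were listed summed to between 0.43 and 2.18 FPKM across its 12 libraries. PDGFRA, PDGFRB, DCN, COL3A1, FAP and THY1 were not listed there. In these bulk libraries, fewer cells of a type and less RNA per cell cannot be told apart.

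**Figure D1:**
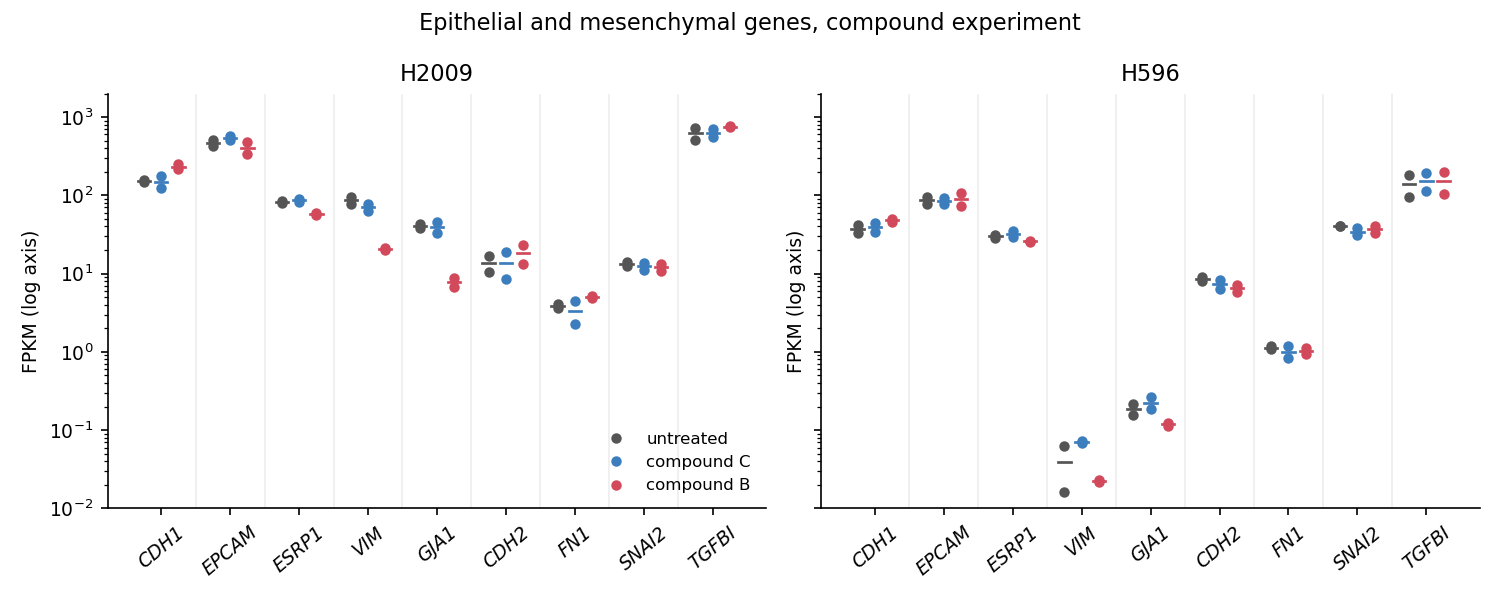
FPKM of the 9 listed genes (log axis) in the compound experiment, with H2009 on the left and H596 on the right; each point is 1 library and each bar the mean of 2. In H2009 the compound B points of VIM and GJA1 lie below those of untreated and compound C cells, and in H596 both genes are below 1 FPKM in every library.

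Compound B in H2009 was accompanied by lower levels of VIM and GJA1 and a higher level of CDH1. VIM was at 21.3 and 20.2 FPKM with compound B, 78.5 and 63.0 FPKM with compound C and 94.4 and 77.7 FPKM in untreated cells. Its 2 compound B libraries lay close together and below all 4 of the others. The mean was 20.8 FPKM against 86.0 FPKM untreated, 4.15-fold lower, and the log2 difference was -1.99 (SE 0.18, 95% interval -2.40 to -1.59). GJA1 was at 6.72 and 8.86 FPKM with compound B, 33.4 and 45.4 FPKM with compound C and 38.0 and 43.3 FPKM untreated. Here too the compound B libraries did not overlap any other, and the level was 5.21-fold lower than untreated (log2 difference -2.25, SE 0.20, interval -2.70 to -1.80). Over 11 alternative fits the log2 differences were -2.13 to -1.86 for VIM and -2.43 to -2.07 for GJA1.

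GJA1 has a processed pseudogene, GJA1P1, of nearly identical sequence, and how reads shared by the copies were assigned is not given. An antisense RNA, VIM-AS1, lies beside VIM and was at 1.29 to 1.38 FPKM with compound B and 1.29 to 3.53 FPKM untreated in H2009. The library kit preserves strand, but use of strand in quantification is not stated. These levels are small beside those of VIM in H2009.

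CDH1 was the epithelial gene with a higher level. In H2009 it was at 248 and 218 FPKM with compound B, 176 and 123 FPKM with compound C and 156 and 148 FPKM untreated. The compound B libraries were the highest of the 6, the mean was 1.53-fold that of untreated cells and the log2 difference was 0.61 (SE 0.24, interval 0.08 to 1.14). CDH1 stayed higher with compound B under all 11 alternatives, at 0.52 to 0.86.

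ESRP1 and EPCAM did not share that direction. ESRP1 was at 59.9 and 56.1 FPKM with compound B, 90.9 and 82.5 FPKM with compound C and 80.5 and 85.8 FPKM untreated. Its compound B libraries were the lowest of the 6, with a log2 difference of -0.51 (SE 0.17, interval -0.89 to -0.13), and after quantile normalization the difference was -0.33. EPCAM was at 477 and 338 FPKM with compound B and 511 and 432 FPKM untreated, groups that overlapped. Its difference of -0.23 (interval -0.83 to 0.38) changed sign with quantile normalization, to 0.07.

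The mesenchymal genes other than VIM had no common direction in H2009. CDH2 was at 23.5 and 13.1 FPKM with compound B and 17.0 and 10.4 FPKM untreated, overlapping groups with a log2 difference of 0.38 (interval -0.49 to 1.25) that became -0.02 without compound B replicate 1. FN1 was at 5.15 and 4.83 FPKM with compound B and 4.13 and 3.61 FPKM untreated, a difference of 0.30 (interval -0.21 to 0.80). SNAI2 was at 13.2 and 10.9 FPKM with compound B and 14.2 and 12.7 FPKM untreated, a difference of -0.15 (interval -0.60 to 0.30). TGFBI was at 761 and 737 FPKM with compound B and 727 and 513 FPKM untreated, a difference of 0.29 (interval -0.64 to 1.22), which was 0.68 after quantile normalization. The intervals of these 4 genes all included 0.

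Counted together, compound B and untreated libraries of H2009 did not overlap in 6 of the 9 genes, 3 higher (CDH1, FN1, TGFBI) and 3 lower (VIM, GJA1, ESRP1), against 54.4% of all genes tested. VIM and GJA1 were called lower at adjusted p under 0.05 and none was called higher, against a background of 11.4% of genes called (813 higher, 642 lower). As the genes were chosen with this contrast in view, nothing is read from these counts. ZEB1 itself has no value. ZEB1-AS1, an antisense RNA of that locus, was at 1.54 to 2.01 FPKM with compound B and 0.453 to 1.06 FPKM untreated, which does not measure ZEB1.

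VIM and GJA1 were barely detected in H596. VIM was at 0.0219 and 0.0232 FPKM with compound B, and GJA1 at 0.113 and 0.125 FPKM. On the log2(FPKM + 1) scale their differences from untreated were -0.02 (interval -0.42 to 0.38) and -0.08 (interval -0.53 to 0.36). The compound B difference in H596 minus that in H2009 was 1.97 (interval 1.41 to 2.54) for VIM and 2.17 (interval 1.54 to 2.80) for GJA1. Both were past adjusted p under 0.05, as were 0.454% of all genes, which says nothing further: with H596 near 0 FPKM and both genes tested only through H2009, these values restate the H2009 differences. They lay between 1.83 and 2.11 for VIM and between 1.99 and 2.34 for GJA1 over 14 alternatives.

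For the genes expressed in both lines, the compound B differences in H596 were small. CDH1 was at 49.5 and 46.2 FPKM with compound B, 44.7 and 33.5 FPKM with compound C and 42.1 and 32.8 FPKM in untreated H596. Both compound B libraries lay above the other 4, as in H2009, with a log2 difference from untreated of 0.35 (interval -0.18 to 0.89). The difference between lines in the CDH1 response was -0.26 (interval -1.01 to 0.49), which includes 0 and also responses of unequal size. ESRP1 was at 25.4 and 26.2 FPKM with compound B and 31.4 and 28.6 FPKM untreated, lower in both compound B libraries by -0.21 on the log2 scale (interval -0.59 to 0.17). SNAI2 was at 40.5 and 33 FPKM against 41.0 and 40.7 FPKM. CDH2 was at 7.21 and 5.85 FPKM against 9.11 and 7.95 FPKM, the opposite side from its mean in H2009. EPCAM, FN1 and TGFBI overlapped between groups, with differences of 0.05, -0.07 and 0.14. In all, 1 gene was higher and 4 lower without overlap, where 28% of all genes did not overlap. None of the 9 was called by limma and 0% of all genes were, with 735 genes at an unadjusted p under 0.05.

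Compounds B and C can be compared directly at the same dose and time, 9 genes in each of the lines. In H2009, the B minus C difference was -1.71 for VIM (interval -2.11 to -1.31), -2.19 for GJA1 (interval -2.64 to -1.75), 0.66 for CDH1 (interval 0.12 to 1.19), -0.57 for ESRP1 (interval -0.95 to -0.19) and 0.51 for FN1 (interval 0.005 to 1.01). These 5 genes did not overlap between the compounds, and EPCAM (-0.42, interval -1.02 to 0.18) and TGFBI (0.27, interval -0.66 to 1.20) did not overlap either. Of all genes tested, 52% did not overlap in this comparison, and nothing is read from the overlap. SNAI2 (-0.04, interval -0.49 to 0.41) and CDH2 (0.45, interval -0.42 to 1.32) overlapped. Without compound C replicate 2 the FN1 difference was 0.14, that of CDH1 0.40 and that of CDH2 -0.08, and without compound C replicate 1 that of FN1 was 0.88. VIM and GJA1 were past adjusted p under 0.05, as were 11.4% of all genes. This comparison shares its compound B libraries with the one against untreated cells and is no separate support. In H596, no interval of the 9 genes excluded 0, the largest being -0.31 for ESRP1 (interval -0.69 to 0.07), and 0.00782% of all genes were called.

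Compound C by itself left the 9 genes near their untreated levels. In H2009 the differences ranged from -0.28 for VIM (interval -0.68 to 0.12) to 0.19 for EPCAM (interval -0.41 to 0.79). All groups overlapped, where 6.79% of all genes tested did not. In H596 the differences ranged from -0.25 for SNAI2 (interval -0.70 to 0.20) to 0.17 for TGFBI (interval -0.76 to 1.11). There 1 gene was higher (VIM, near 0 FPKM) and 1 lower (SNAI2) without overlap, where 11.3% of all genes did not overlap. None of the 9 was called in either line. Across all genes limma called 0.00782% in H2009 (9 genes at an unadjusted p under 0.05) and 0% in H596 (20 genes). The intervals still allow differences of the sizes given.

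**Figure D2:**
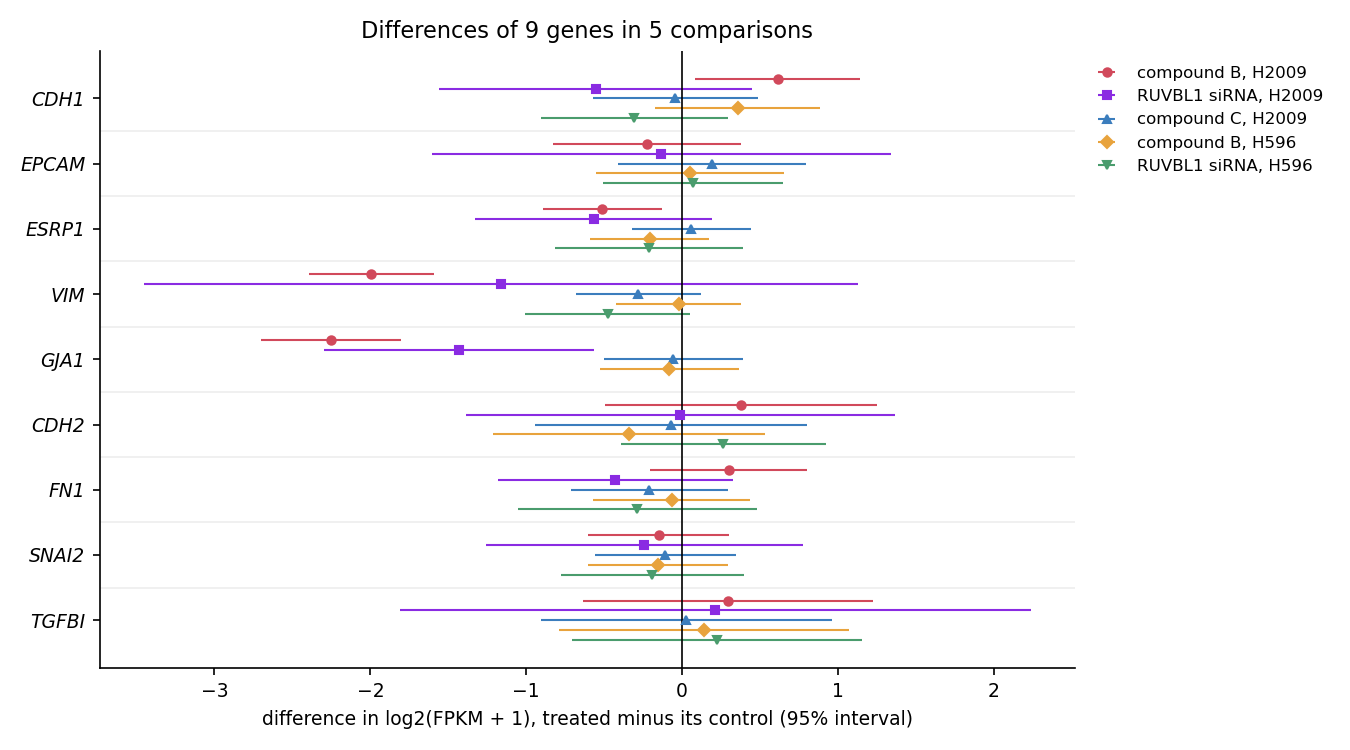
Differences in log2(FPKM + 1) between treated and control libraries of the 9 listed genes in 5 comparisons, with 95% intervals from the fit across all genes (2 libraries a group). VIM and GJA1 lie at -1.99 and -2.25 with compound B in H2009 and near 0 with compound C in H2009 and with compound B in H596; GJA1 has no value for siRNA in H596.

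The siRNA experiment addressed RUVBL1 itself. RUVBL1 was at 1.75 and 1.11 FPKM with its siRNA and 87.8 and 64.3 FPKM with non-targeting siRNA in H2009, and at 2.26 and 2.52 FPKM against 112 and 123 FPKM in H596. The labels were therefore matched by the targeted gene in all 8 libraries. With compound B in H2009, RUVBL1 was at 70.3 and 84.0 FPKM, against 92.4 and 110 FPKM untreated (log2 difference -0.39, interval -1.03 to 0.26). In H596 it was at 93.0 and 117 FPKM with compound B and 119 and 176 FPKM untreated (-0.47, interval -1.11 to 0.18). The groups did not overlap in either line, as for 54.4% of all genes in H2009 and 28% in H596, and RUVBL1 was not called.

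GJA1 was lower after RUVBL1 siRNA in H2009. It was at 11.9 and 15 FPKM with the siRNA and 32.5 and 43.8 FPKM with the non-targeting control, without overlap. The log2 difference was -1.43 (SE 0.33, interval -2.30 to -0.57). VIM was at 28.3 and 8.84 FPKM with the siRNA and 73.4 and 18.4 FPKM with the control. Its groups overlapped, because the libraries of each group were far apart, and the difference of -1.16 (SE 0.87) had an interval of -3.45 to 1.13. Leaving out 1 library moved the VIM difference between -2.13 and -0.19: it was -1.95 without RUVBL1 siRNA replicate 1, -0.38 without RUVBL1 siRNA replicate 2, -0.19 without non-targeting replicate 1 and -2.13 without non-targeting replicate 2.

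Among the epithelial genes in H2009, CDH1 had opposite signs with siRNA and with compound B, and ESRP1 and EPCAM the same sign. CDH1 was at 111 and 67.9 FPKM with RUVBL1 siRNA and 141 and 116 FPKM with the control, lower without overlap (log2 difference -0.56, interval -1.56 to 0.45), whereas its level with compound B was higher than untreated. The siRNA difference was -0.91 without RUVBL1 siRNA replicate 1 and -0.20 without RUVBL1 siRNA replicate 2. The siRNA and compound libraries come from separate tables, so the difference between these responses was not tested. ESRP1 was at 82.1 and 74.8 FPKM against 116 and 117 FPKM, a difference of -0.57 (interval -1.33 to 0.19). EPCAM was at 495 and 225 FPKM against 491 and 274 FPKM, overlapping groups with a difference of -0.13 that was 0.004 after quantile normalization.

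FN1 was at 4.12 and 3.49 FPKM with RUVBL1 siRNA and 5.2 and 5.71 FPKM with the control in H2009 (log2 difference -0.43, interval -1.18 to 0.32). CDH2 (18.9 and 10.0 against 20.3 and 9.46 FPKM), SNAI2 (7.34 and 6.25 against 11 and 6.07 FPKM) and TGFBI (846 and 284 against 695 and 258 FPKM) overlapped between groups. In total 4 of the 9 genes were lower without overlap (GJA1, CDH1, ESRP1, FN1) and none was higher, where 31.1% of all genes did not overlap. Without a replicate block, no gene passed adjusted p under 0.05 in limma (0%), RUVBL1 included, and 532 had an unadjusted p under 0.05.

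**Figure D3:**
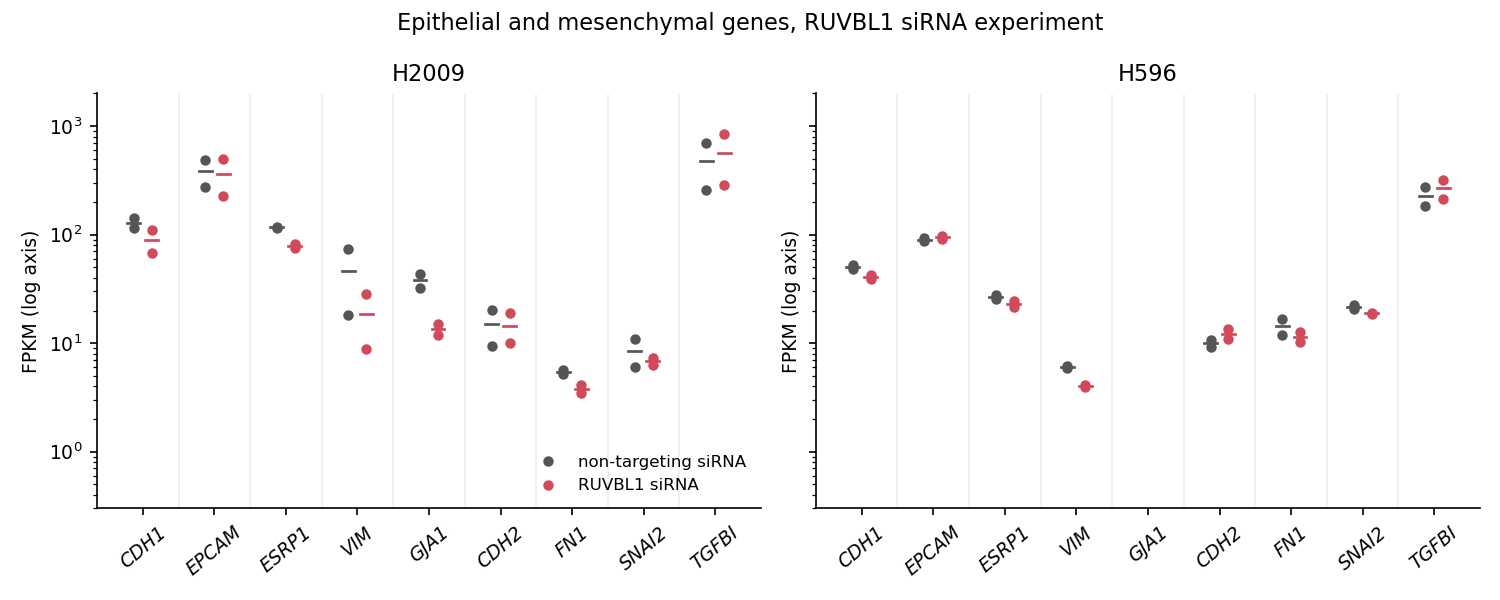
FPKM of the listed genes (log axis) with non-targeting siRNA and RUVBL1 siRNA, with H2009 on the left and H596 on the right; each point is 1 library and each bar the mean of 2. The GJA1 points are separated in H2009, at 11.9 and 15 FPKM below 32.5 and 43.8 FPKM, while the libraries within each group differ widely for VIM, EPCAM and TGFBI in H2009.

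In H596, RUVBL1 siRNA was accompanied by a lower VIM level, from a control level that was itself far above that of untreated H596. VIM was at 4.12 and 3.98 FPKM with the siRNA and 6.10 and 5.96 FPKM with the non-targeting control, without overlap and with a log2 difference of -0.48 (SE 0.19, interval -1.01 to 0.05). FN1 was at 10.2 and 12.7 FPKM against 11.9 and 16.8 FPKM, overlapping groups with a difference of -0.29 (interval -1.06 to 0.48).

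The fibroblast markers COL3A1, DCN and COL1A1 were listed in this table, 3 of 8 markers, and summed to between 6.78 and 8.52 FPKM with RUVBL1 siRNA and between 8.49 and 8.69 FPKM with the control. In untreated H596 of the compound experiment, DCN and COL3A1 were not listed, and COL1A1 and LUM summed to between 0.771 and 2.12 FPKM. The sums thus hold different genes. LUM, at 1.55 and 0.422 FPKM untreated, was not listed with siRNA. COL1A1, listed in both, was at 0.571 and 0.349 FPKM untreated and 2.76 and 1.36 FPKM with non-targeting siRNA. CDH5, an endothelial cadherin, was the 1 endothelial marker of 6 listed, at 1.22 and 1.22 FPKM with the siRNA and 1.44 and 1.57 FPKM with the control. PDGFRA, PDGFRB, LUM, FAP and THY1 were not listed. The part of these markers in the VIM and FN1 values was not tested.

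The remaining genes in H596 had small differences. CDH1 was at 42.5 and 38.7 FPKM with RUVBL1 siRNA and 52.9 and 48.0 FPKM with the control, lower in both libraries by -0.31 (interval -0.91 to 0.29) on the log2 scale. ESRP1 was at 21.6 and 24.3 FPKM against 25.8 and 27.7 FPKM, and SNAI2 at 18.5 and 19.1 FPKM against 20.6 and 22.6 FPKM, both lower without overlap. CDH2 was the gene with a higher level, at 13.5 and 10.9 FPKM against 10.8 and 9.16 FPKM (difference 0.26, interval -0.39 to 0.92). EPCAM (91.5 and 97.3 against 86.5 and 93.5 FPKM) and TGFBI (319 and 215 against 273 and 184 FPKM) overlapped. The 1 gene higher and 4 lower without overlap stand beside 17.6% of all genes without overlap. Without a replicate block, limma called 0% of genes, with 137 at an unadjusted p under 0.05.

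The H596 controls of the experiments differed in some of these genes more than any treatment did. VIM was at 0.0618 and 0.0163 FPKM untreated and 6.10 and 5.96 FPKM with non-targeting siRNA. Of 11893 genes shared by the tables, ordered from the most higher to the most lower with non-targeting siRNA, it was 14th. FN1 was at 1.18 and 1.08 FPKM untreated and 11.9 and 16.8 FPKM with non-targeting siRNA, and was 13th. Higher in this order were RMRP (2.29 and 1.06 FPKM untreated, 206 and 185 FPKM with non-targeting siRNA) and RPPH1 (0.536 and 0.938 against 94.6 and 69.2 FPKM), both short noncoding RNAs. The interferon-induced genes IFI6 (4.72 and 1.45 against 119 and 48.8 FPKM) and MX1 (2.93 and 1.97 against 69.9 and 58.8 FPKM) also stood above VIM and FN1. Their part in the VIM and FN1 values was not tested. SNAI2 went the other way, at 41.0 and 40.7 FPKM against 20.6 and 22.6 FPKM. CDH1, EPCAM, ESRP1 and CDH2 each differed by at most 1.35-fold between the means of these controls. TGFBI was at 180 and 95.3 FPKM untreated and 273 and 184 FPKM with non-targeting siRNA.

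Of 23 mesenchymal matrix genes, 15 were listed in both H596 tables, 10 of them over 1 log2 unit higher with non-targeting siRNA and none over 1 lower, while 5 were listed only in the siRNA table. The share of all 11893 shared genes past this size was not computed, so nothing is read from the count. The median log2 difference over all 11893 shared genes was 0.05. SPARC, a matrix glycoprotein, was at 0.0216 and 0.00928 FPKM untreated and 0.934 and 1.3 FPKM with non-targeting siRNA. COL3A1 was at 3.91 and 3.87 FPKM and DCN at 2.02 and 3.27 FPKM in the non-targeting libraries. Mesenchymal cytoskeleton and surface genes went both ways between these controls. LGALS1 was at 25.3 and 32.6 FPKM untreated and 217 and 157 FPKM with non-targeting siRNA. TAGLN was at 10.6 and 10.2 against 3.15 and 2.83 FPKM, MYL9 at 29.9 and 29.9 against 15.7 and 16.6 FPKM. CD44 was at 106 and 111 against 103 and 115 FPKM. Genes high in H2009 such as NKX2-1, SFTA3, EMP3 and GJA1 were not listed in the H596 siRNA table. The tables were normalized separately and the experiments were separate. Transfection, culture format and time are among the things that differ between these controls, and what differs cannot be told apart.

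**Figure D4:**
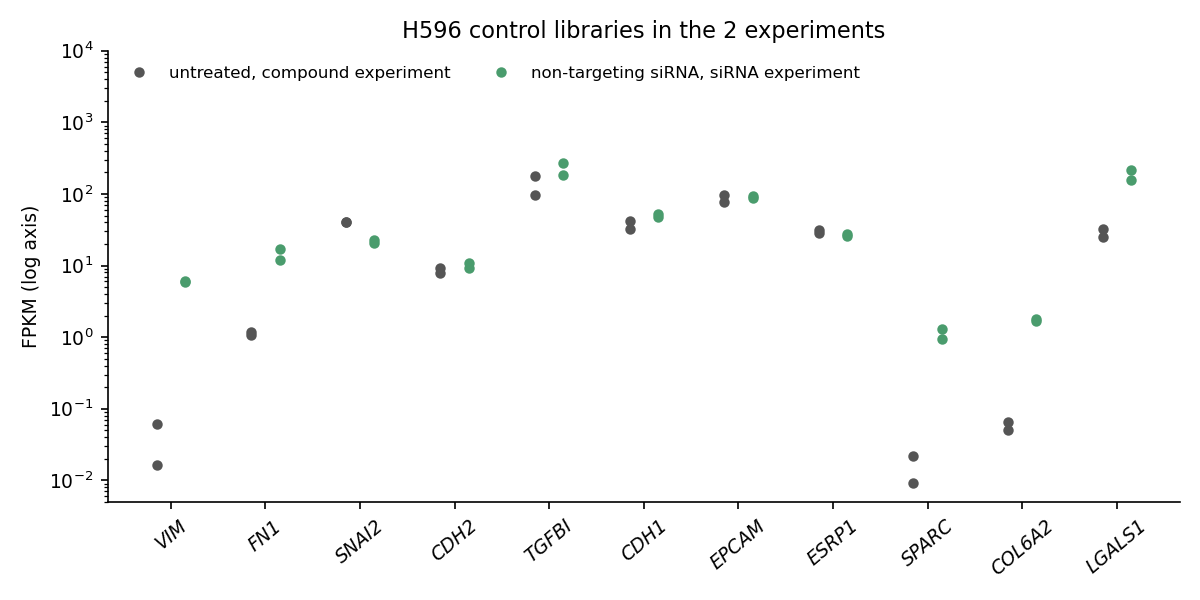
FPKM (log axis) of 8 of the chosen genes and of SPARC, COL6A2 and LGALS1 in the H596 control libraries of the compound experiment (untreated) and of the siRNA experiment (non-targeting siRNA); each point is 1 library. VIM, FN1, SPARC, COL6A2 and LGALS1 are higher in both non-targeting libraries and SNAI2 is lower in both. CDH1, EPCAM and ESRP1 lie at similar levels.

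Other genes of the same pathways were examined in lists that hold none of the chosen genes, although some of their genes are described above. With compound B in H2009, single genes passed the test in most lists. Of 3 listed EMT transcription factors of 8, SNAI1, the gene of the repressor SNAIL, rose. It was at 22.2 and 12.1 FPKM with compound B, 4.61 and 3.14 FPKM with compound C and 4.30 and 2.51 FPKM untreated, a log2 change of 2.02 (SE 0.29, limma adjusted p = 0.00328). In H596 SNAI1 was at 0.913 and 0.866 FPKM with compound B and 0.323 and 0.138 FPKM untreated (limma adjusted p = 0.895), and after RUVBL1 siRNA in H2009 at 6.25 and 3.23 FPKM against 1.86 and 1.82 FPKM (limma adjusted p = 0.967). CDH1, which SNAIL is known to repress, had its highest H2009 levels in the same compound B libraries but was not called without a replicate block. Any action of SNAIL on CDH1 here was not tested.

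The counts below stand beside 11.4% of all genes called. Among 24 epithelial junction and polarity genes, 2 rose and 1 fell with compound B in H2009, with a median log2 change of -0.06 beside -0.01 over all genes. LSR, a tricellular junction protein, rose by 1.14 and MARVELD3, a tight junction protein, by 0.82, while the desmosomal plakophilin PKP2 fell by 0.98 (limma adjusted p = 0.0361, 0.0226 and 0.0115). Among 16 epithelial regulators and surface genes, OVOL1 rose by 1.18 and 3 fell: ELF3 by 1.27, OVOL2 by 0.90 and RBM47 by 0.83 (limma adjusted p = 0.0439, 0.00514, 0.00974 and 0.0208). The median of this list was -0.27. OVOL1 and OVOL2 are related zinc finger factors and stood on opposite sides. None of the 4 simple epithelial keratins passed the test. KRT19 was at 434 and 272 FPKM with compound B and 1060 and 654 FPKM untreated (limma adjusted p = 0.0956).

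Of the 15 mesenchymal matrix genes reported here none passed, and the list's median log2 difference was 0.01. MMP14, a membrane-bound matrix protease, was at 7.72 and 4.85 FPKM with compound B and 3.84 and 1.71 FPKM untreated (limma adjusted p = 0.215). TNC, which encodes tenascin-C, was at 14.4 and 23.7 FPKM against 31.6 and 43.2 FPKM (limma adjusted p = 0.124). Of 16 cytoskeleton and surface genes, 2 rose and 1 fell (median 0.02). NT5E, which encodes the ectonucleotidase CD73, was at 326 and 238 FPKM with compound B and 85.6 and 71.1 FPKM untreated, a rise of 1.82 (limma adjusted p = 0.00816). TAGLN, an actin-binding protein, rose by 1.58 (limma adjusted p = 0.0248), and EMP3, a membrane protein of mesenchymal cells, fell from 65.7 and 52.1 FPKM to 19.8 and 22.3 FPKM (log2 change -1.44, limma adjusted p = 0.00535).

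Lists of adhesion and signalling partners held 1 or 2 calls each. Of 8 connexins and pannexins tested, relatives of GJA1, GJB5 was the 1 called and fell by 0.91 (limma adjusted p = 0.0163). Of 11 cadherin-catenin partners, VCL (vinculin) rose by 1.37 (limma adjusted p = 0.0126). Of 11 integrins, ITGA5, the fibronectin receptor subunit, rose by 0.93 and ITGAV by 0.92 (limma adjusted p = 0.0481 and 0.0125), with a list median of 0.32. Of 16 TGF-beta pathway genes, LTBP2 rose by 1.12 and SKIL by 0.87 (limma adjusted p = 0.0195 and 0.0207), with a median of 0.31. The lineage factor NKX2-1 fell from 106 and 60.8 FPKM to 25.6 and 18.7 FPKM (log2 change -1.83, limma adjusted p = 0.0111).

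Of the 18 genes called, 11 higher and 7 lower, each kept its sign in every alternative in which it was tested, as PKP2 (-1.03 to -0.93), RBM47 (-0.92 to -0.74) and NT5E (1.60 to 2.05) show. Fewer kept the call: SNAI1 and ELF3 passed in all 11 alternatives, and the other 16 in 4 to 9 of their 10 or 11. Leaving out compound B replicate 1 ended 16 calls, untreated replicate 2 ended 12, compound B replicate 2 ended 10 and untreated replicate 1 ended 9, and fitting the 6 H2009 libraries alone ended 13. Without a replicate block, no gene of these lists was called for compound B in H596, for compound C in either line or for RUVBL1 siRNA in either line. Of all genes, 0.00782% were called for compound C in H2009 and 0% in the others. As RUVBL1 itself was not called with its siRNA, nothing is read from this. In H2009 the siRNA libraries of NT5E (289 and 235 against 100 and 76.5 FPKM) and ITGA5 (51.4 and 30.5 against 15.3 and 10.4 FPKM) lay above their controls (limma adjusted p = 0.967 for both). LSR was at 70.6 and 32.7 FPKM with siRNA against 29.5 and 16.8 FPKM, and PKP2 at 14.1 and 12.6 FPKM against 27.1 and 23.0 FPKM (limma adjusted p = 0.967 for both).

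**Figure D5:**
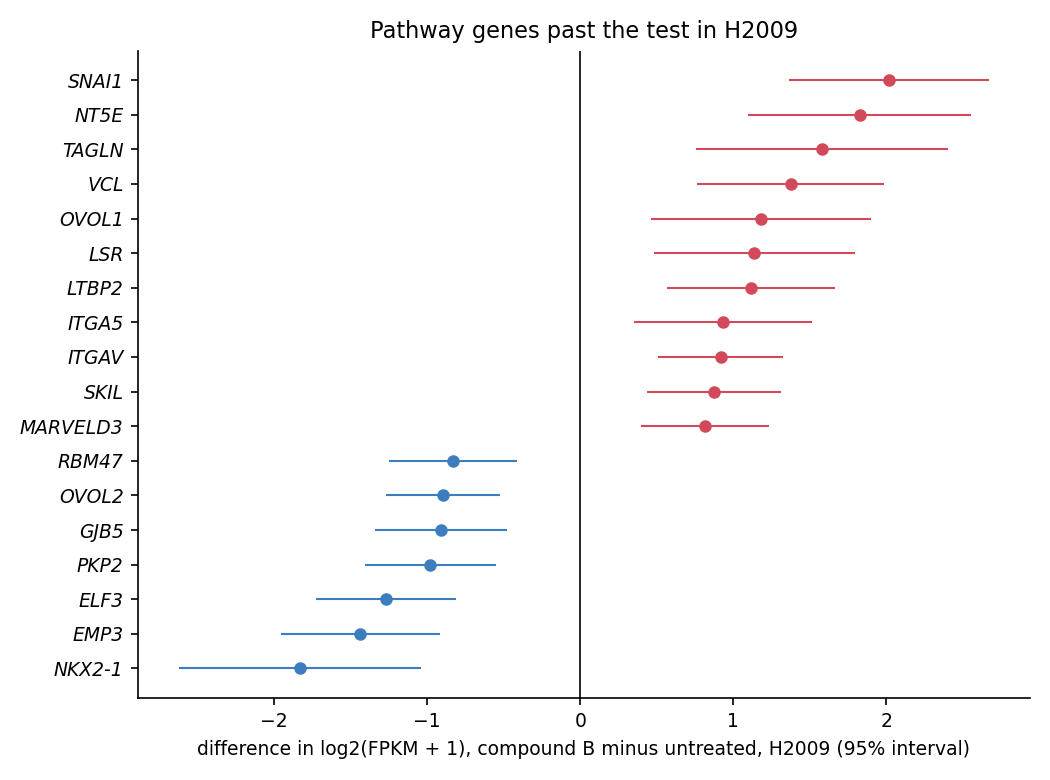
Differences in log2(FPKM + 1), compound B minus untreated in H2009, of the 18 genes of the pathway and lineage lists that passed limma's test at an adjusted p under 0.05, with 95% intervals (2 libraries a group). SNAI1 is highest at 2.02 and NKX2-1 lowest at -1.83, and epithelial and mesenchymal genes appear on both sides of 0.

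The genes whose pattern over the 12 compound libraries was nearest to that of VIM, GJA1 and CDH1 were found by the root mean square difference of log2(FPKM + 1), each gene centred on its own mean. For VIM they were SFTA3 (0.263), NKX2-1 (0.356) and EMP3 (0.393). SFTA3 was at 56.3 and 65.6 FPKM in untreated H2009, 16.3 and 15.1 FPKM with compound B and at most 0.183 FPKM in H596. For GJA1 they were ZNF883 (0.331), MEST (0.425) and EMP3 (0.452), each high in H2009, lower there with compound B and under 1 FPKM in H596. For CDH1, MYO1D (0.159) and AACSP1 (0.17) are given. MYO1D, an unconventional myosin, was at 36.6 and 29.2 FPKM in untreated H2009, 59.4 and 51.2 FPKM with compound B and between 7.80 and 14.0 FPKM in H596. The 12 libraries share 6 groups and the difference between lines carries most of each pattern, so the likeness is a description.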

How the data were processed

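Poly(A) RNA of 20 libraries was quantified by the authors as FPKM per gene, in 1 table for the compound experiment and 1 for the siRNA experiment of each line. Per the submitters' processing notes, CASAVA 1.8.2, TopHat2 2.0.12, Cufflinks 2.2.1 and hg19 were used. The notes give no roles or settings. The deposited FPKM hold no read counts, and their low values showed no whole-read steps, so depth is unknown and no count test was used. The 8 libraries of sequenced cDNA were not used here, and 19 H2009 rows named as dates were left out.

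Values were taken as log2(FPKM + 1), without further scaling, for genes with a mean of at least 1 FPKM (over the libraries of 1 line or more in the compound table). They were fitted with limma 3.58.1 (R 4.3.3) with a mean-variance trend, 6 group means over 12 libraries for the compounds and 4 libraries per siRNA table, and adjusted by Benjamini-Hochberg over all genes tested. The fit was tested on simulated data. The genes described and the 14 lists of 175 other genes were chosen with earlier results of these data known, so no p is printed for the former. From each list, up to 3 called genes with the highest and 3 with the lowest change are named, or, where none was called, up to 2 with the largest change without overlap, not all of which are printed; NT5E, ITGA5, LSR and PKP2 are given again for siRNA. Genes nearest in pattern are the 3 with the smallest root mean square difference. One gene of a list and one nearest gene are not reported here. Groups follow the labels, and 10 comparisons were made. Alternatives were a pseudocount of 0.1, no filter, a mean of at least 5 FPKM, quantile normalization, a replicate block, no trend, the libraries of 1 line alone and leaving out each library.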

Additional observations from a re-analysis of the deposited data

Results flagged for a closer look

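VIM and GJA1 had unlike log2 differences with compound B in the lines. The value in H596 minus that in H2009 was 1.97 for VIM (SE 0.25) and 2.17 for GJA1 (SE 0.28), with both genes lower with compound B than untreated in H2009 and below 1 FPKM in every H596 library of the compound experiment. Both genes were chosen with these differences in view, and with levels near 0 FPKM in H596 the values restate the H2009 differences, so a difference in response cannot be told apart from the difference in starting level. With a pseudocount of 0.1 they were 1.88 and 2.0, past the threshold for neither gene. With 1 of 8 libraries left out, VIM was past it only without H2009 untreated replicate 2, and GJA1 only without H2009 compound B replicate 2 or H2009 untreated replicate 1.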

How the results depend on the processing

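For compound B against untreated cells in H2009, 1455 genes were called, 830 with a mean of at least 5 FPKM, 548 with the H2009 libraries alone and 353 to 660 with 1 library left out. For compound B against compound C in H2009 the count was 1462, against 880, 504 and 345 to 1634 under these settings. In H596, compound B against untreated gave 0, 6 after quantile normalization and 0 to 1 with a library left out, and compound B against compound C gave 1, but 0 with a pseudocount of 0.1, no filter, the stricter filter, no trend, the line alone or any library left out. Compound C in H2009 gave 1, 2 with a pseudocount of 0.1 and 1 to 2 with a library left out. The difference in compound B response between lines gave 58 genes, 12 with a pseudocount of 0.1, 102 without a filter, 6 with the stricter filter, 117 after quantile normalization, 29 without a trend and 8 to 31 with a library left out. Untreated H596 against H2009 gave 5529 and, with a library left out, 4015 to 4510. With a library left out, RUVBL1 siRNA gave 1 to 12 genes in H2009 and 4 to 8 in H596, the lone library of an arm being assumed to vary like the others.

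With a replicate block, the counts were 5696 and 853 for compound B in H2009 and H596, 2 for compound C in H2009, 5829 and 595 for compound B against compound C, 1828 for the difference between lines, 8515 between untreated lines, and 4758 and 5574 for RUVBL1 siRNA in H2009 and H596. The labels give the 2 numbers no meaning. Deviations of same-numbered libraries correlated at 0.523 to 0.862 in the compound table, 0.936 in the H2009 siRNA table and 0.966 in that of H596. With the block, 5 of the 9 chosen genes were past the threshold with RUVBL1 siRNA in H2009, all lower (VIM, GJA1, CDH1, ESRP1, FN1), where 42.4% of all genes were, and 7 of 8 in H596, 5 lower (VIM, CDH1, ESRP1, FN1, SNAI2) and 2 higher (CDH2, TGFBI), where 46.4% were. With compound B in H2009 they were 2 higher (CDH1, CDH2) and 3 lower (VIM, GJA1, ESRP1), where 44.6% were. RUVBL1 was past the threshold with its siRNA in both lines. With RUVBL1 siRNA in H596, the block called 10 of 24 epithelial junction and polarity genes higher and 2 lower. Of 16 epithelial regulators and surface genes it called 10 higher and 3 lower, and of 4 simple epithelial keratins 4 lower. In H2009 these were 4 higher and 3 lower of 21, 3 higher and 5 lower of 16, and 2 lower of 4. Within numbers, VIM with RUVBL1 siRNA in H2009 differed by -1.35 and -0.98.

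Over 392 member differences with 1 library left out, 56 changed sign, as did 8 of 89 after quantile normalization and 1 of 89 with a pseudocount of 0.1, none of them a called value. Depth is unknown, so the precision of levels under 1 FPKM cannot be given.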
